A study of Ovis aries with 32 samples.

Results

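GBP2, MX1 and a probe that the study's gene list calls GZMB were followed in the hearts of 14-day-old lambs, as 3 of the 15008 probes on an Agilent sheep array. The MX1 probe was the only one with that name in the annotation of the array. The GBP2 and GZMB probes were chosen by their fold change and p-value in the left ventricle, for which the study lists these genes as altered by maternal cortisol, so the left ventricular cortisol differences of the 3 probes are a description with no test. RNA came from the left ventricular free wall (LV) and the interventricular septum (IVS), with 1 sample on each of 32 arrays. Each tissue came from 8 lambs of untreated ewes (Control) and 8 lambs of ewes infused with cortisol (CORT). The infusion ran overnight at 0.5 mg/kg/day from day 115 of gestation to delivery. The lambs themselves received no cortisol, a set of twins was born in each group of ewes, and the labels do not tie an LV array to an IVS array of the same lamb. The paper describes both tissues as taken from the same hearts, 8 in each group, so the 32 arrays are not 32 separate lambs. A lamb number below is the replicate number of an array in its tissue, so the same animal may hold different numbers in the LV and IVS. Each p-value within a tissue measures the spread between these lambs, and the comparison of the tissues treated the 32 arrays as independent. Because the hearts gave both tissues, the IVS p-values of GBP2 and GZMB are not independent of their choice in the LV.

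Interferons are secreted by cells that sense viral or other foreign nucleic acid, and they switch on a large set of genes in the cells around them through receptors on the cell surface. MX1 and its neighbour MX2 encode dynamin-like GTPases that block viruses, ISG15 encodes a ubiquitin-like protein that is attached to other proteins, and these genes respond mainly to type I interferon. GBP2 encodes a guanylate-binding GTPase that acts against intracellular microbes and responds strongly to interferon gamma. Granzyme B, the product of GZMB, is a serine protease that cytotoxic T cells and natural killer cells deliver into their targets, whereas mast cell proteinases are related serine proteases of mast cell granules.

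The probes are shown here because the names of GBP2 and GZMB do not come from the annotation of the array. Each is a 60-base oligonucleotide, written in the orientation of the array's design, and capitals mark AATAAA, the signal for cleavage and polyadenylation near the end of a transcript.

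GBP2, probe A_70_P066386: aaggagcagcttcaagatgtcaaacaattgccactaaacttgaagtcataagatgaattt

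MX1, probe A_70_P039536: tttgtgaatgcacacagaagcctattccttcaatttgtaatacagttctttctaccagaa

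MCP-3 (GZMB in the study), probe A_70_P012516: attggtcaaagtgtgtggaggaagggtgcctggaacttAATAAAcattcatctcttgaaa

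MCP-3, other probe, A_70_P012517: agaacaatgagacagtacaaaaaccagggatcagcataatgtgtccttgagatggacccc

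MX2, probe A_70_P039716: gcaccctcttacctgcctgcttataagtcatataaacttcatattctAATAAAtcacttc

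ISG15, probe A_70_P030156: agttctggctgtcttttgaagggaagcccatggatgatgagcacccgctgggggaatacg

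The array names the GBP2 probe only by an expressed sequence tag. Its fold change and p-value in the deposited LV matrix match the entry for GBP2 in the study's list, and its sequence was not checked against a gene. The second probe was traced to GZMB in the same way, but the array annotates it as mast cell proteinase-3 (MCP-3), and its accessions match the sheep genes MCP-3 and MCP1 in the RefSeq table. No probe on the array is named GZMB, so this probe is called MCP-3 below. In that table MCP-3 and MCP1 lie on the same chromosome with 4 genes between them, and MX1 and MX2 are neighbours with 0 genes between them. AATAAA starts at base 39 of the MCP-3 probe and at base 48 of the MX2 probe, and 5.63% of the 15008 probes hold it on the probe strand, against 3.71% on the other strand. The MX1 probe shared no more than 13 consecutive bases with any other probe of the array, and GBP2 and MCP-3 no more than 12.

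GBP2 and MX1 were bright and differed widely from lamb to lamb, whereas MCP-3 lay close to the background. Levels are given as normalized log2 intensity within a tissue, and the level of a probe is compared only with itself. A probe counted as bright on an array when it was more than 10% above the 95th percentile of the negative controls, a limit that the 3 probes passed on all 32 arrays. GBP2 and MX1 were also marked as well above background on every array by the scanner software. MCP-3 was so marked on 5 of 8 LV Control, 6 of 8 LV CORT, 7 of 8 IVS Control and 7 of 8 IVS CORT arrays. No spot of the 3 probes was saturated or marked as an outlier.

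**Figure D1:**
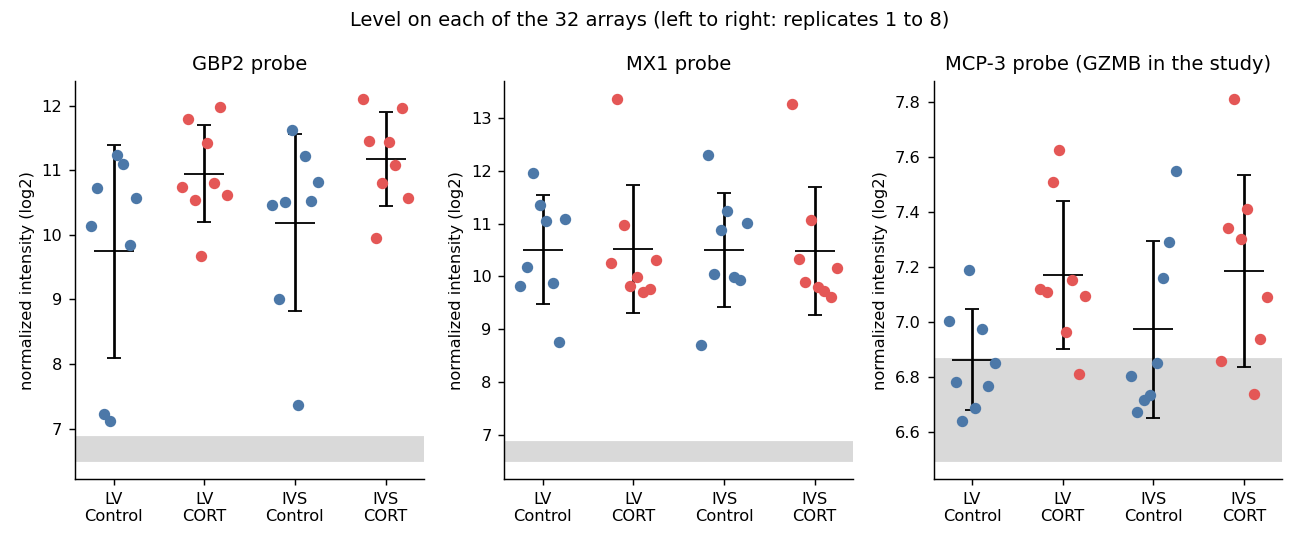
Normalized log2 intensity of the GBP2, MX1 and MCP-3 probes (y axes, separate scales) in the 4 groups, with 1 point per array in the order of the replicate numbers, a horizontal line at the mean and bars of 1 SD (n = 8). The grey band spans the brightness limits of the 32 arrays; GBP2 lay near it on 3 Control arrays, MX1 was highest on 1 CORT array of each tissue, and many MCP-3 points lay inside it, each above the limit of its own array.

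GBP2 in the LV of Control lambs had a lowest level of 7.12, a median of 10.36 and a highest of 11.24. In the LV of CORT lambs the lowest was 9.68, the median 10.77 and the highest 11.97. The groups overlapped, and 3 of the 8 CORT lambs lay above the highest Control lamb while none lay below the lowest. The CORT minus Control difference was 1.20 on the log2 scale, and 7 of the 8 CORT values exceeded the mean of the Control values. Most Control values exceeded that mean too, which at 9.75 lay below the Control median of 10.36. Control lambs 3 and 4, at 7.23 and 7.12, stood apart from the other 14 LV arrays, the lowest of which was at 9.68. With lamb 3 left out the difference was 0.84, and with lamb 4 left out it was 0.82. Each of these fits kept the other low array, so neither shows the difference without both lambs, which was not computed. Within the slides, each of which held 4 arrays of either group, the difference was 1.88 on the slide with both of these lambs and 0.51 on the other.

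In the IVS the GBP2 level of Control lambs ran from 7.37 through a median of 10.51 to 11.62, and that of CORT lambs from 9.95 through 11.26 to 12.10. The groups overlapped here too, and the lowest value again belonged to a Control lamb, replicate 5. Control lambs averaged 10.19 ± 1.37 (SD, n = 8), and CORT lambs 11.17 ± 0.72 (SD, n = 8), with 7 of the 8 CORT values over the Control average. Most Control values lay over that average too, which was below the Control median of 10.51. The difference was 0.98 (SE 0.50, 95% interval -0.06 to 2.03). This did not exceed the spread between lambs (limma, unadjusted p = 0.0639, adjusted p = 0.993 over all probes; two-sided exact permutation test over 12870 assignments, p = 0.0870). These p-values are not independent of the choice of GBP2 in the LV, since the paper describes both tissues as taken from the same hearts. Of the 3 members 0 passed an unadjusted p under 0.05 in the IVS, where 3.59% of all 11685 tested probes passed it. Within the 3 IVS slides the GBP2 difference was 2.05, 0.55 and 0.41, with between 2 and 4 arrays of a group on a slide. Leaving out Control lamb 5 brought the difference to 0.58. The unadjusted limma p fell under 0.05 without Control lamb 4 (difference 1.19, limma p = 0.0279, exact permutation p = 0.0351) and without CORT lamb 3 (1.16, limma p = 0.0347, exact permutation p = 0.0404). Without Control lamb 6 the difference was 1.13, with a limma p = 0.0414 and an exact permutation p = 0.0572.

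MX1 did not differ between CORT and Control lambs by more than their spread. Its LV level in Control lambs was 8.76 at the lowest, 10.62 at the median and 11.96 at the highest, and in CORT lambs 9.70, 10.12 and 13.36. In the IVS the corresponding levels were 8.70, 10.46 and 12.29 in Control lambs and 9.61, 10.03 and 13.27 in CORT lambs. In both tissues 1 CORT lamb lay above all Control lambs and the other CORT lambs lay within the Control range, with 6 of 8 below the Control mean. The LV difference was 0.01, with -0.39 when CORT lamb 2 was left out and -0.54 when arrays were weighted by their quality. The IVS difference was -0.03 (SE 0.52, 95% interval -1.13 to 1.07; limma, unadjusted p = 0.960; exact permutation p = 0.959), with -0.43 when CORT lamb 1 was left out (limma, unadjusted p = 0.305) and -0.36 with the arrays weighted. Within slides it was 1.31, -0.23 and -0.49 in the IVS, and 0.28 and -0.25 in the LV. The sign of the small IVS difference turned with the scaling: it was 0.01 with the processed signal and 0.01 with cyclic loess.

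MCP-3 had LV levels of 6.64, 6.82 and 7.19 (lowest, median and highest) in Control lambs and 6.81, 7.11 and 7.62 in CORT lambs. The groups overlapped, with 7 of the 8 CORT values over the Control average, 2 above the highest Control lamb and a difference of 0.31. It was 0.55 without the offset in the background correction and 0.81 with the processed signal of the scanner software. In the IVS the levels were 6.67, 6.83 and 7.55 in Control and 6.74, 7.19 and 7.81 in CORT lambs. The IVS difference of 0.21 (SE 0.16, 95% interval -0.12 to 0.55) did not exceed the spread (limma, unadjusted p = 0.197; exact permutation p = 0.225), and 5 of the 8 CORT values exceeded the Control average. As for GBP2, these p-values are not independent of the choice of the probe in the LV. Without CORT lamb 3 the difference was 0.12. Its direction was not the same on all slides, at 0.36, 0.79 and -0.29. The LV and IVS differences of the 3 probes are set side by side only, and the difference between the tissues in the cortisol effect was not tested.

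**Figure D2:**
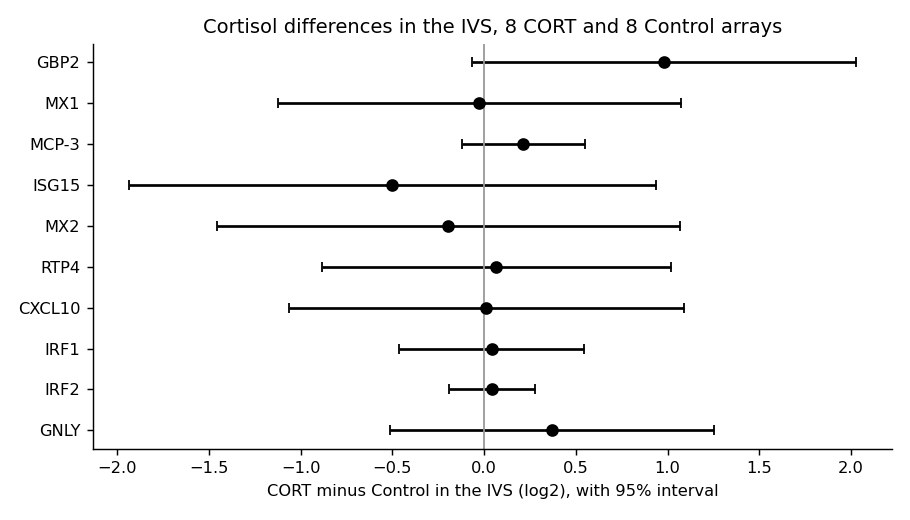
CORT minus Control difference in the IVS on the log2 scale (x axis) for the 3 probes and 7 other genes named in the text, as points with 95% intervals from limma (8 arrays a group). Every interval includes 0; GBP2 had the largest difference, 0.98, and ISG15 the widest interval.

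The levels of the 3 probes in the LV and IVS differed by less than their spread. After normalizing all 32 arrays together, GBP2 was at 10.41 ± 1.39 (SD, n = 16) in the LV and 10.61 ± 1.17 (SD, n = 16) in the IVS, an IVS minus LV difference of 0.20 (95% interval -0.61 to 1.02; limma, unadjusted p = 0.616). For MX1 the difference was -0.16 (interval -0.94 to 0.62; limma, unadjusted p = 0.680), and for MCP-3 it was -0.01 (interval -0.20 to 0.19; limma, unadjusted p = 0.947). None of the 3 reached an adjusted p under 0.05, which 11.9% of the 11315 probes tested did. Tissue and slide cannot be told apart here, since no slide held both tissues. The fit treated the 32 arrays as independent, although the paper describes both tissues as taken from the same hearts. Myoglobin (MB), the oxygen-binding protein of heart muscle, was the only cardiomyocyte marker of those sought that had a named probe. It was between 17.41 and 18.57 on every array within the tissue-wise scale.

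The spread between lambs of one group was the feature that GBP2 and MX1 had in common. The SD between arrays of a group was 1.28 for GBP2 and 1.13 for MX1 in the LV, where the median over 11518 tested probes was 0.16, and 25 and 35 probes respectively had a larger one. In the IVS the SDs were 1.096 and 1.153 against a median of 0.24, and 91 and 78 of 11685 probes varied more. MCP-3, at 0.23 and 0.34, ranked at the 75.7th and 75.4th percentile. Within a group the range of GBP2 was 17.3-fold in LV Control, 4.91-fold in LV CORT, 19.1-fold in IVS Control and 4.45-fold in IVS CORT lambs, and that of MX1 lay between 9.20-fold and 12.7-fold in the 4 groups. The Control groups, with the larger ranges of GBP2, held the 3 low arrays.

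**Figure D3:**
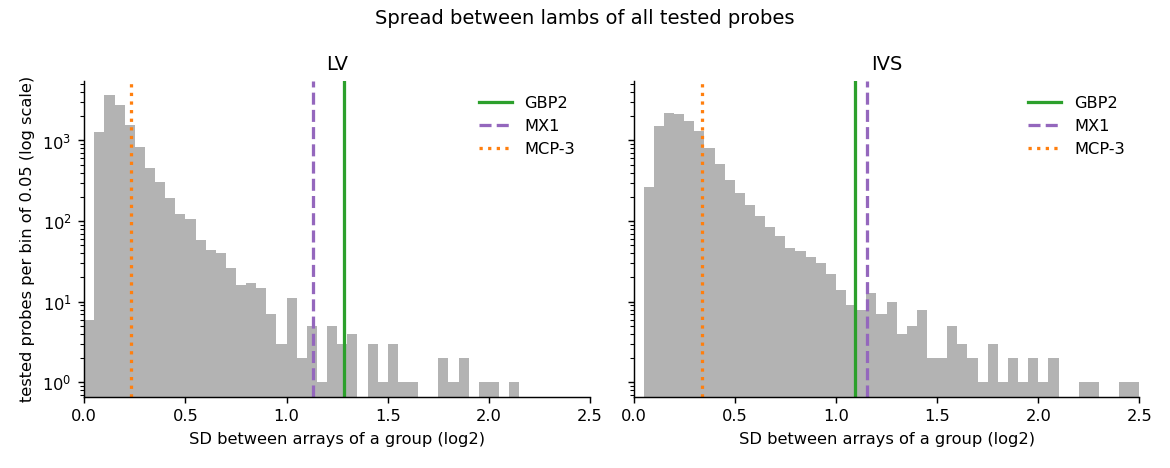
Number of tested probes (y axis, log scale, bins of 0.05) by the SD between arrays of a group (x axis, log2 units, the root mean square of the Control and CORT SDs) in the LV and IVS. Lines mark GBP2, MX1 and MCP-3: the first pair lie in the far right tail, and MCP-3 lies near the bulk at 0.23 and 0.34.

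MX1 rose and fell in the same arrays as ISG15, RTP4, MX2 and CXCL10. Likeness was measured on deviations from the group means, as the smaller of Pearson's r over the 16 LV and the 16 IVS arrays, and is given as a description, since the points of a tissue share slides and normalization. The 5 named probes most like MX1 stood for ISG15 (r = 0.95 in the LV and 0.95 in the IVS), RTP4, an interferon-induced chaperone of membrane receptors (0.94 and 0.96 for both of its probes), MX2 (0.91 and 0.92) and CXCL10, a chemokine that draws activated T cells (0.74 and 0.90). Of the listed interferon-stimulated genes with a named probe, IRF1 and IRF2 were less alike. IRF1 had r = 0.67 in the LV and 0.46 in the IVS, and IRF2 -0.01 and -0.55. Of 11211 other probes, 17 had an r above 0.8 with MX1 in both tissues, and 4 of these have a gene name. GBP2 and MCP-3 had 0 such probes.

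The arrays at the top of this pattern were 1 LV and 1 IVS array of the CORT groups. In the LV, CORT lamb 2 had MX1 at 13.36 against a median of 9.99 in the other 7 CORT lambs, which is 10.3-fold. The same array had the highest level of the 16 for ISG15 (14.27), MX2 (13.25), RTP4 (13.76), CXCL10 (10.91) and IRF1 (9.15), the last a transcription factor induced by interferon gamma. In the IVS the array with these peaks was CORT lamb 1, with MX1 at 13.27 (10.4-fold over the median of the other 7), ISG15 at 13.90, MX2 at 12.97, RTP4 at 13.95, CXCL10 at 11.09 and IRF1 at 9.32. GBP2 was the second highest on the LV array (11.79) and the highest on the IVS array (12.10), but it was only 2.08-fold and 2.02-fold above the median of the other CORT lambs. MCP-3 took no part, at 7.11 on the LV array and 6.86 on the IVS array, 0.99-fold and 0.73-fold the median of the others.

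**Figure D4:**
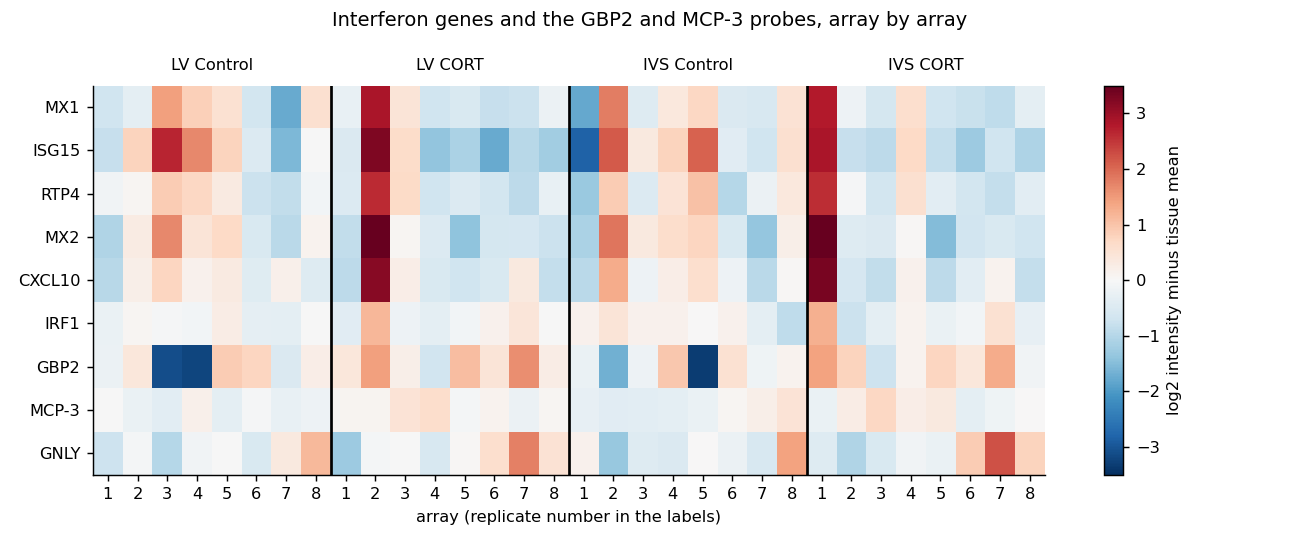
Log2 intensity minus the mean of the tissue (colour, red above and blue below) of 9 probes (rows) on the 32 arrays (columns, by group and replicate number). MX1, ISG15, RTP4, MX2 and CXCL10 are darkest red together on LV CORT 2 and IVS CORT 1, while GBP2 is dark blue on LV Control 3 and 4 and IVS Control 5, where MX1 and ISG15 are above their means.

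The arrays with the least GBP2 were among those with the most MX1. LV Control lambs 3 and 4, with GBP2 at 7.23 and 7.12, took ranks 2 and 3 of 16 for MX1 (11.96 and 11.35) and likewise for ISG15 (13.68 and 12.68). IVS Control lamb 5, with GBP2 at 7.37, took rank 3 for MX1 (11.23) and for ISG15 (13.10). On these arrays GBP2 lay at 0.098, 0.091 and 0.112 times the median of the other 7 Control lambs of the tissue. MCP-3 was at 6.64, 7.19 and 6.85 there, with ranks 16, 3 and 11 of 16 arrays.

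Because these 3 arrays lay apart from the rest in GBP2, relations with GBP2 were computed over the other 14 LV and 15 IVS arrays, a choice made after their values were seen. There were 6 relations between members, tested by two-sided permutation with 100000 resamples on deviations from group means. GBP2 and MX1 had r = 0.45 in the LV (p = 0.104, adjusted p = 0.313; Spearman's rho 0.36, p = 0.208, adjusted p = 0.625) and r = 0.01 in the IVS (p = 0.979, adjusted p = 0.979; rho 0.05, p = 0.874, adjusted p = 0.979). Over all 16 arrays of a tissue the sign turned, with r = -0.19 in the LV (permutation p = 0.477) and -0.13 in the IVS (permutation p = 0.630). Without the 2 arrays farthest from the median of GBP2 among the 14 and 15, r was 0.44 and 0.15. Deviations from the means of slide and group gave r = 0.69 in the LV (permutation p = 0.00593) and -0.16 in the IVS (permutation p = 0.564). Spearman's rho in this form was 0.52 in the LV (permutation p = 0.0593). The LV relation thus passed 0.05 only by Pearson's r with the slides taken out, and the IVS relation in no form.

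GBP2 and MCP-3 had a negative Pearson's r in the LV that passed adjustment with Control lambs 3 and 4 left out, and did not pass 0.05 with them. Over all 16 LV arrays r was -0.40 (permutation p = 0.125) and rho -0.39 (permutation p = 0.142). Over the 14 LV arrays r was -0.71 (p = 0.00420, adjusted p = 0.0252) and rho -0.56 (p = 0.0387, adjusted p = 0.232), with r = -0.62 without the 2 farthest arrays and -0.68 within slides and groups. By group r was -0.84 over 8 CORT lambs and -0.18 over the 6 Control lambs that remained, and the difference between these was not tested. In the IVS r was -0.17 (p = 0.534, adjusted p = 0.800; rho -0.10, p = 0.724, adjusted p = 0.979), with -0.38 when the 2 farthest arrays were left out and -0.04 over all 16 arrays. By group it was -0.63 over 8 CORT and 0.29 over 7 Control lambs. The LV value concerns a probe close to background, and the difference between the tissues was not tested. MX1 and MCP-3 had r = -0.01 in the LV (p = 0.966, adjusted p = 0.979; rho 0.01, p = 0.979, adjusted p = 0.979) and -0.20 in the IVS (p = 0.462, adjusted p = 0.800; rho -0.14, p = 0.602, adjusted p = 0.979). Without the 2 farthest arrays these turned to 0.26 and 0.20, and within slides and groups they were -0.34 and -0.32. None of the 6 relations was a joint rise that passed the adjusted threshold.

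**Figure D5:**
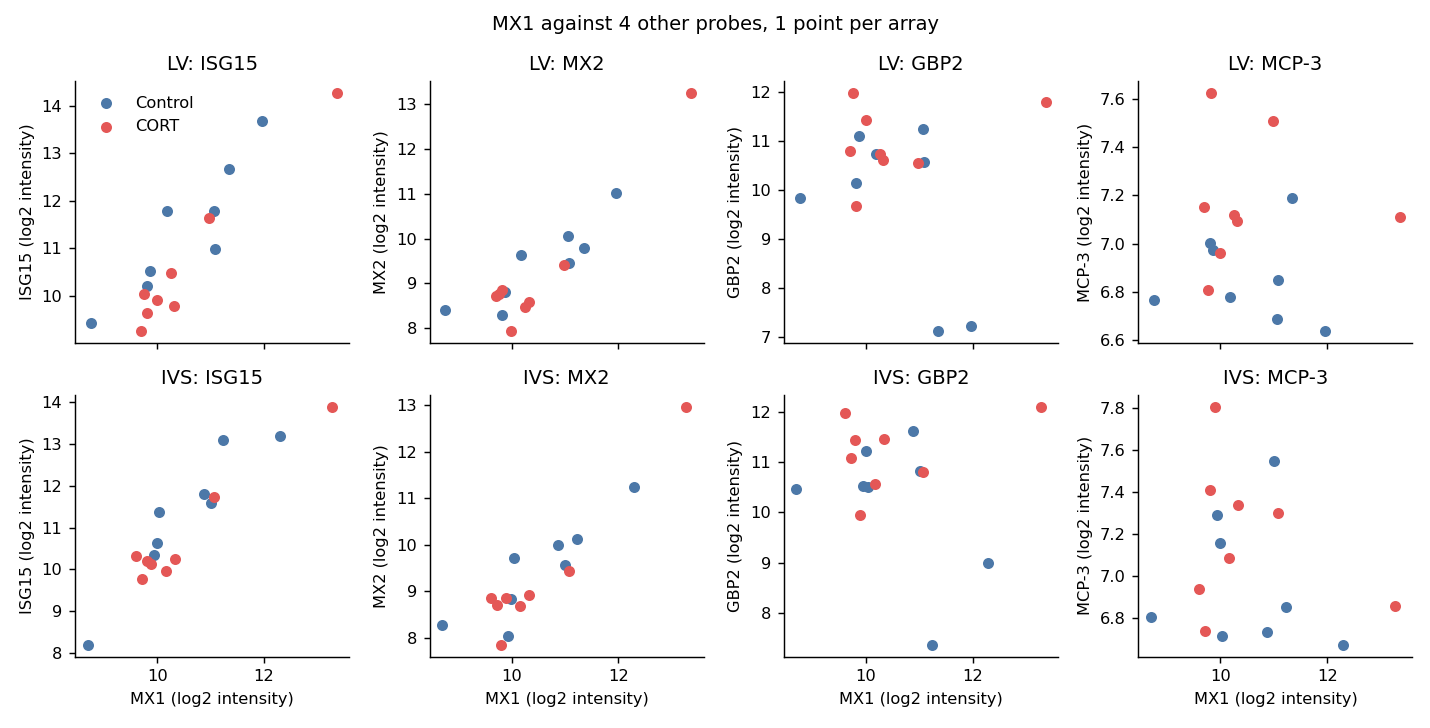
Log2 intensity of ISG15, MX2, GBP2 and MCP-3 (y axes) against that of MX1 (x axes) in the LV (top) and IVS (bottom), with 1 point per array coloured by group. ISG15 and MX2 rise with MX1 in both tissues (r between 0.91 and 0.95 on deviations from group means), the lowest GBP2 points lie at high MX1, and MCP-3 had r = -0.01 in the LV and -0.20 in the IVS.

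The named probes most like GBP2 were not interferon genes. They stood for AQP3, a water and glycerol channel (r = 0.53 in the LV and 0.57 in the IVS, with 0.52 and 0.50 for its other probe), PRNP, the prion protein (0.50 and 0.57), and GLUD1, the mitochondrial glutamate dehydrogenase (0.48 and 0.57, with 0.46 and 0.60 for its other probe). Only 5 of the 11211 other probes had an r above 0.6 with GBP2 in both tissues, and none of the 5 has a gene name. With GBP2, ISG15 had r = -0.25 and -0.21, MX2 -0.08 and -0.05, IRF1 0.32 and 0.14, and CXCL10 0.05 and 0.04 in the LV and IVS. These values include the low arrays. For MCP-3 the list was led by PCNA, the sliding clamp of DNA replication (0.62 and 0.62, with 0.58 and 0.54 for its other probe), followed by PDXK, the kinase of vitamin B6 (0.55 and 0.56), LOC100037674 (0.58 and 0.51) and the cell death gene BAX (0.54 and 0.49).

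Among the listed interferon-stimulated genes with a named probe, those besides MX1 were called in neither tissue, and MX1 was not called in the IVS. In this and the lists below a gene counts as on the array only if a probe has its name. Of the 15008 probes 1656 have a gene name, so other listed genes may lie on probes without one. Of a list of 76 interferon-stimulated genes 5 had a named probe besides MX1, and all 5 were tested. Of these, 0 of 5 had an unadjusted p under 0.05 in the LV or in the IVS (limma), where 3.85% and 3.59% of all probes had one. The median difference of the 5 was -0.09 in the LV and 0.01 in the IVS, against 0.00 and -0.01 over all probes. ISG15 differed by -0.75 in the LV and -0.50 in the IVS (exact permutation p = 0.335 and 0.525), and MX2 by -0.18 and -0.19 (exact permutation p = 0.825 and 0.789). CXCL10 differed by 0.06 and 0.01, IRF1 by 0.18 and 0.04, and IRF2, a repressor of interferon responses, by -0.09 and 0.04. RTP4, outside the list, differed by -0.04 and 0.07.

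Ligands, receptors and sensors upstream gave the same count. Of 13 such genes on the array 9 were tested in the LV and 10 in the IVS, and 0 were called in each. IFNG, the gene of interferon gamma, was dim, with means of 6.81 in LV Control, 6.84 in LV CORT, 6.76 in IVS Control and 6.87 in IVS CORT lambs (exact permutation p = 0.547 and 0.229). The others with the lowest limma p were IL15, a cytokine that sustains natural killer cells (LV -0.10, exact permutation p = 0.235), and the adaptor MYD88 (LV 0.09, exact permutation p = 0.232). Of 7 antigen presentation genes on the array 6 were tested in either tissue with 0 called. Those with the lowest limma p were B2M, PSMB8 and OVAR-DQA1. B2M, the light chain of class I molecules, differed by -0.57 in the IVS (exact permutation p = 0.0928). PSMB8, an interferon-inducible proteasome subunit, differed by 0.22 in the LV and 0.25 in the IVS (exact permutation p = 0.194 and 0.169), and the class II gene OVAR-DQA1 by 0.21 in the IVS (exact permutation p = 0.315). Across arrays PSMB8 had r = 0.68 and 0.68 with MX1, and a proteasome activator, PSME2, had 0.80 and 0.69. PSME2 was picked after its values were seen. The other tested genes of this list had lower r with MX1, between 0.02 and 0.32 in the LV and between -0.08 and 0.43 in the IVS.

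Markers of cytotoxic lymphocytes and mast cells were read beside MCP-3. In a bulk sample fewer cells of a type and less RNA per cell cannot be told apart. Of 12 cytotoxic lymphocyte genes on the array 9 were tested and 0 called in either tissue, with median differences of 0.03 in the LV and 0.04 in the IVS. GNLY, the gene of the cytotoxic granule protein granulysin, was at 8.30 ± 0.79 (SD, n = 8) in IVS Control and 8.67 ± 1.05 (SD, n = 8) in IVS CORT lambs (exact permutation p = 0.446). GNLY had an r of -0.35 in the LV and -0.05 in the IVS with MCP-3. With MCP-3 the T cell receptor genes had r of 0.31 and -0.14 (CD3E), -0.01 and -0.19 (CD3D) and -0.14 and -0.45 (CD247) in the LV and IVS. XCL1, a chemokine of activated T cells, had 0.17 and 0.41, the kinase LCK -0.45 and 0.30, and IL2RA, a chain of the interleukin 2 receptor, 0.07 and 0.20. The surface proteins CTLA4 and CD5 had 0.35 and -0.30, and -0.10 and -0.35. CD4, CD28 and IL2 were not bright enough to be tested.

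Of 6 other genes in the mast cell list 3 were tested in either tissue and 0 were called. FCER1A, a chain of the IgE receptor, had r = 0.22 in the LV and 0.57 in the IVS with MCP-3, TPSB2, a tryptase, -0.24 and 0.28, and KITLG, the ligand of the mast cell receptor KIT, 0.03 and 0.40. KIT, MS4A2 and MCP-4, which mark mast cells, were bright on at most 3 of the 16 arrays of a tissue. The other MCP-3 probe was bright on 2 LV Control, 4 LV CORT, 0 IVS Control and 3 IVS CORT arrays and was not tested. The mean level of the 9 tested lymphocyte genes ran from 7.01 to 7.60 in IVS Control and from 7.19 to 7.63 in IVS CORT lambs. That of the 3 tested genes of the mast cell list ran from 7.08 to 8.32 and from 7.63 to 8.47. These 3 include the ligand gene KITLG, so their mean is not a level of mast cells alone. The part of these cells in the MCP-3 levels was not tested.

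Among genes with a named probe, other cell types showed no called marker beside GBP2 and MX1, with 1 exception outside the immune lists. The study also lists the red cell gene HBA1 as altered in the LV, but no probe read here had that name. Of the macrophage list 13 genes were tested in the LV and 12 in the IVS, of the B cell list 2 and 2, of the neutrophil list 5 and 3, and of the general leukocyte list 1 and 1, and 0 were called in each. The lowest limma p among macrophage genes belonged to the Fc receptor FCGR1A (IVS -0.20, exact permutation p = 0.0990), LYZ, lysozyme (LV -0.44, exact permutation p = 0.189), and the bacterial sensor TLR2 (LV -0.08, exact permutation p = 0.254). ITGB2, the leukocyte integrin chain, differed by -0.25 in the LV and -0.07 in the IVS. The B cell genes CD40 and CR2 had an exact permutation p of 0.393 and 0.696 in the IVS. The lowest limma p among neutrophil genes belonged to SC5, a cathelicidin, CXCL8, a chemokine that draws neutrophils, and LTF, lactoferrin (exact permutation p = 0.299, 0.466 and 0.423 in the LV). Among other cells, 5 and 6 endothelial, 3 and 3 red cell, 3 and 3 fibroblast and 5 and 4 fat cell genes were tested in the LV and IVS. The exception was COL3A1, a fibroblast collagen (LV -0.28, limma p = 0.0131, exact permutation p = 0.0207). Its adjusted p was 0.999 (limma), and 3.85% of all LV probes passed the unadjusted limit. The matrix genes DCN and VIM followed it, DCN with an IVS difference of 0.18 (limma p = 0.0533, exact permutation p = 0.0448) and VIM with 0.15 in the LV (exact permutation p = 0.253). The endothelial genes of lowest p were NOS3, the nitric oxide synthase (IVS 0.25, exact permutation p = 0.163), PECAM1 (LV 0.15, exact permutation p = 0.313) and EDN1, endothelin (LV -0.08, exact permutation p = 0.455). Those of fat cells were the lipase LPL, the hormone gene LEP and PLIN1, a lipid droplet protein (exact permutation p = 0.292, 0.395 and 0.560 in the IVS). Of the red cell genes, EPOR and AHSP differed by 0.12 and 0.21 in the IVS (exact permutation p = 0.107 and 0.192). HBB, the beta globin of red cells, differed by 0.24 in the LV and 0.30 in the IVS (exact permutation p = 0.759 and 0.730). With MX1, HBB had r = 0.67 in the LV and 0.58 in the IVS, AHSP 0.03 and -0.20, and EPOR 0.44 and -0.21.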

How the data were processed

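RNA of 16 LV and 16 IVS samples was hybridised to 1-colour Agilent sheep arrays, 1 sample per array, on 2 slides for the LV and 3 for the IVS. The authors deposited spot intensities from the scanner software (Agilent Feature Extraction 10.1.1.1, per the labels), with no normalization between arrays, and 1 matrix per tissue of log2 values that they had background corrected, quantile normalized and filtered for brightness. The amount of RNA and the dye differ between the labels and the methods, and no value here uses them.

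Here each spot's mean intensity was background corrected by normexp (offset 50) against its median local background, then quantile normalized within each tissue, in limma 3.58.1 (R 4.3.3). Values were averaged per probe after removal of outlier spots. Probes over the brightness limit on at least 8 arrays of a tissue were tested by limma (lmFit and eBayes, two-sided, Benjamini-Hochberg over all probes) in scripts that were first tested on simulated data. Signal over background was uneven, with a median intensity of 131 to 332 and 60.0 to 80.6% of probes well above background per array, and the number of arrays limits the precision. Gene names came from the array's annotation and from accessions matched to a RefSeq table of 35057 sheep genes; 1656 probes have a name, and 726 matched by accession. A gene with several probes was read on its brightest probe. The genes that could be named were all members, any gene with a named probe in the interferon-stimulated, lymphocyte and mast cell lists, the 3 genes of lowest limma p in each other list, and the 5 named probes most like each member. The members and lists were chosen with earlier results of these data known. Alternatives covered the background correction, the normalization, the brightness limit, slide and replicate blocks, array weights, the eBayes settings, the deposited matrix and leaving out each array. The authors' fold changes and p-values were used only to trace the names of GBP2 and GZMB. An interferon-related gene is not reported here, and the counts over lists leave it out.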

Additional observations from a re-analysis of the deposited data

Results flagged for a closer look

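Single CORT lambs stood apart from their group in 4 interferon genes. In the LV, CORT lamb 2 had the highest MX1 at 13.36, where the next CORT lamb was at 10.98, and the gap was 0.651 of the range of the group against a critical value of 0.526. The same lamb was highest in MX2 (13.25, next 9.41, 0.722 of the range), RTP4 (13.76, next 11.81, 0.548) and CXCL10 (10.91, next 8.06, 0.697).

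In the IVS, CORT lamb 1 had MX1 at 13.27, next to 11.07, MX2 at 12.97, next to 9.43 (0.692), RTP4 at 13.95, next to 11.91 (0.594), and CXCL10 at 11.09, next to 7.91 (0.752). These were 8 of 40 combinations of a gene and a group that were examined, where chance marks about 1 in 20. The genes are not independent, since they vary together, and neither are the tissues, which the paper describes as taken from the same hearts. GBP2 and MCP-3 had no array flagged by this rule, which compares an extreme value with the next one. LV Control lambs 3 and 4 lay side by side at low GBP2 (7.23 and 7.12), so the rule could not flag either. The labels do not say whether the LV and IVS arrays came from the same lamb, and the cause was not tested.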

How the results depend on the processing

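Over 13 alternatives of the CORT fits, GBP2 in the IVS kept its direction and stayed over 0.05 (0.74 to 1.16, unadjusted limma p from 0.0586 to 0.155), as did MCP-3 (0.19 to 0.73, p from 0.0978 to 0.264 by limma). Leaving out each array in turn gave 0.58 to 1.19 for GBP2 -0.43 to 0.23 for MX1 and 0.12 (without CORT lamb 3) to 0.30 (without Control lamb 8) for MCP-3 in the IVS. MX1 turned sign there with the processed signal (0.0084), cyclic loess (0.0147) and slide as a block (0.0478), and its lowest unadjusted limma p was 0.347 over these alternatives, with arrays weighted by quality (-0.36), and 0.305 with single arrays left out. The same weights moved MX1 in the LV to -0.54. In the LV the MCP-3 difference was 0.55 with a normexp offset of 0 and 0.81 with the processed signal. The processed signal also widened the SD of MCP-3 to 0.69 in LV Control, 0.84 in LV CORT, 1.04 in IVS Control and 0.74 in IVS CORT lambs, and turned its IVS minus LV difference to 0.0275.

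Of the relations between members, GBP2 and MX1 in the LV passed 0.05 on deviations from slide and group means by Pearson's r (0.69) but not by Spearman's rho. The IVS value turned to -0.16 there. Leaving out the arrays low in GBP2 was a choice made after their values were seen, and the relations over all 16 arrays were also added then. Over all 16, GBP2 and MX1 turned to -0.19 in the LV and -0.13 in the IVS. GBP2 and MCP-3 in the LV fell short of 0.05 at -0.40 (permutation p = 0.125). GBP2 and MCP-3 in the IVS turned to 0.0616, and MX1 and MCP-3 in the LV to 0.0396, with the processed signal. MX1 and MCP-3 turned to 0.26 in the LV and 0.20 in the IVS without the 2 farthest arrays.

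The number of probes with an unadjusted p under 0.05 was 419 in the IVS and 444 in the LV. In the IVS it was 879 with slide as a block, and leaving out single arrays gave 228 to 852 (261 without Control lamb 1, 253 without 2, 228 without 3, 708 without 5 and 852 without 8). In the LV it was 734 with arrays weighted by quality. Same-numbered Control and CORT arrays had correlations over 0.1 in 6 of 8 pairs in the IVS (-0.15 to 0.42) and 3 of 8 in the LV (0.00 to 0.29), and same-numbered LV and IVS arrays in 5 of 8 CORT and 2 of 8 Control pairs. Since not every pair passed and most same-numbered Control and CORT arrays shared a slide, the numbers were not taken as pairs of lambs. The replicate block gave 639 probes in the IVS and changed no call of a member. The causes of these shifts were not tested.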
